A study of Homo sapiens with 346 samples.

Results

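HCT-116, a human colorectal carcinoma line, was profiled as single live cells and as single cells that had been fixed in methanol. The cells described here are all those of the line with a column in the deposited gene table. They are 91 live and 92 fixed cells of 334 with a column, which are fewer than the cells labelled in the series. The other cells with a column, 68 live and 83 fixed, are labelled HepG2. Live cells were stained and sorted without fixation, and fixed cells were kept in 80% methanol for 1 week at -80 °C, rehydrated and then sorted, and each cell gave a full-length Smart-seq2 library. The experiment was performed once, so each treatment is 1 sample, cells are not replicates, and the library batch of a treatment cannot be told apart from the treatment. For that reason no test between treatments is given: a gene is called higher or lower in fixed cells where its mean differed at least 2-fold, and errors are SDs over the 91 live and 92 fixed cells.

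Methanol dehydrates a cell and precipitates its proteins without forming cross-links, so that RNA can be read after rehydration. Smart-seq2 primes at poly(A) tails, copies each transcript to its 5' end by template switching and amplifies the cDNA by PCR. Short RNAs without a tail, ribosomal RNA among them, are therefore read only through internal priming or through longer precursors, and a value for them is not a measure of the mature RNA.

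The labels were checked against markers. EPCAM, KRT8, KRT18 and KRT19, which mark simple epithelium, were above 0 in 100% of the cells of both treatments. The intestinal markers CDX2 and CEACAM5 were weaker. CDX2, an intestinal transcription factor, was above 0 in 81.3% of live and 60.9% of fixed cells, and CEACAM5 had means of 0.0808 and 0.0571 TPM. VIL1, LGALS4 and CDX1, also intestinal, are not in the table. The summed level of the epithelial list, of which 9 of 12 genes are in the table, ran from 1566 through a median of 4444 to 10833 TPM (transcripts per 1000000 read) in live cells and from 1791 through 3400 to 9422 in fixed cells, most of it from the keratins. Median sums were 4.805 and 3.02 TPM for the 9 of 17 hepatocyte markers in the table and 0.462 and 0 for 7 of 12 blood cell markers. They were 0.889 and 0.118 for 7 of 10 markers of fibroblasts and endothelium. ALB, APOB and TTR are among the hepatocyte markers not in the table, and CPS1 had the largest means of those present, 3.25 and 2.89 TPM.

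Libraries held 0.7 to 5.3 M (units of 1000000) reads per live cell (median 2.5 M) and 0.2 to 4.9 M per fixed cell (median 1.8 M). Live cells had 12029 ± 919 genes above 0 and fixed cells 10506 ± 1337. The gap of 1523 genes was 1137 among 70 cells per treatment paired on total reads (medians of 2.4 M live and 2.35 M fixed). With every cell thinned to 500000 reads and 5 shallower fixed cells left out, live cells had 8759 genes and fixed cells 7924, a gap of 834. The thinned counts cover only genes matched to transcript reads, so the fall from 1523 to 834 does not measure the part due to depth. Total reads moved with treatment. Shares of cells are therefore given at 500000 reads too where transcript reads allowed it, for the genes with the largest changes in share. Correlations between cells had medians of 0.768 among live cells, 0.743 among fixed cells and 0.736 between treatments, and the highest was 0.868, so no pair of columns repeats a cell.

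TPM is a share of the RNA read in a cell, so a change in an abundant RNA shifts every other value. Ribosomal RNA took a median of 24.8% of all TPM in live cells and 7.66% in fixed cells. All values were therefore compared both as given and after each cell was divided by a median-ratio factor from 5403 broadly detected genes; the factor had a median of 0.960 in live and 1.09 in fixed cells. Unless stated, means are TPM as given and log2 ratios are those of mean rescaled TPM, fixed over live. The median log2 ratio over the 11205 genes tested was -0.02 rescaled, 0.17 as given and -0.14 with ribosomal RNA left out before scaling. By rescaled TPM 1.02% of the genes tested were at least 2-fold higher in fixed cells and 10.7% (1199 genes) at least 2-fold lower. As given, the counts were 213 (1.9%) and 879 (7.84%), and with ribosomal RNA left out 76 (0.679%) and 1436 (12.8%). Of the called genes, 91.3% were lower in fixed cells after rescaling, 80.5% as given and 94.97% without ribosomal RNA. For each list below, the shares of all genes to set beside its rescaled counts are 10.7% lower and 1.02% higher. The genes nearest the 2-fold line were C19orf43 at -1.003 and RMDN3 at -1.01 just inside it, and QSOX1 and TBC1D14, both at -0.99, just outside. On the upper side SNORA24 at 1.01 was inside and SERPINE2 at 0.99 outside.

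**Figure D1:**
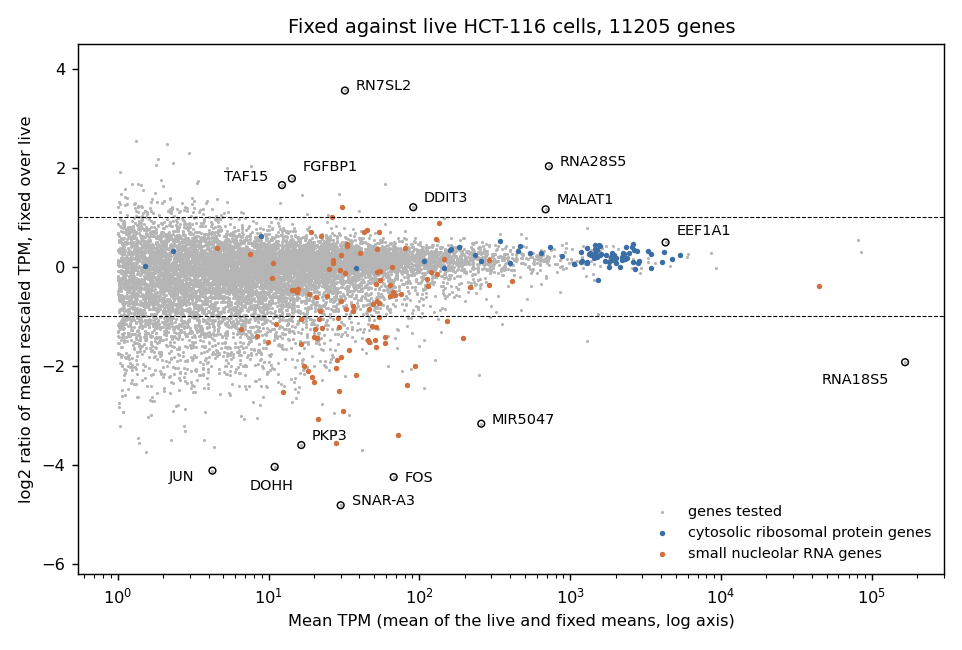
Log2 ratio of mean rescaled TPM, fixed over live (vertical axis), against mean TPM (horizontal log axis) for the genes tested, 1 point per gene, with ribosomal protein genes and small nucleolar RNA genes in color and the 2-fold lines drawn. Most points past the lines lie below the lower one; SNAR-A1 and SNAR-A2, both at -15.15 with a live mean that rests on 1 cell, lie off the axis.

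The entries listed for ribosomal RNA moved in opposite directions. One of them is the precursor of others, so reads may be split between entries, and an entry need not follow the RNA it is named for. RNA18S5, the 18S RNA of the small ribosomal subunit, ran from 165774 through a median of 245511 to 403621 TPM in live cells and from 37413 through 74716 to 137995 in fixed cells. It was the 1 gene of those tested (0.00892%) whose ranges over cells did not overlap, with a log2 ratio of -1.92 (-1.74 as given). RNA28S5, the 28S RNA of the large subunit, was listed at 0 to 761 TPM (median 259) in live cells and at 131.3 to 2577 (median 1123) in fixed cells. The ranges overlapped, and the log2 ratio was 2.03 (2.22 as given). RNA45S5, the precursor of both, had medians of 51.3 and 98.5 TPM and a log2 ratio of 0.14. RNA5-8S5, the small partner of the 28S RNA, was above 0 in 52.7% of live and 11.96% of fixed cells, with means of 49.1 ± 70.4 and 5.85 ± 24.98 TPM and a log2 ratio of -3.34.

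Other short and abundant entries moved less. MIR6723 and MIR4461, microRNA gene names with some of the largest values in the table, had mean TPM of 71121 and 60620 in live cells and 98744 and 101496 in fixed cells, at log2 ratios of 0.29 and 0.55. SNORA109, a small nucleolar RNA gene, had means of 47320 and 41437 TPM and a log2 ratio of -0.39. These entries alone exceed the sum of most gene lists, so sums over their classes are given without SNORA109.

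7SL RNA, the scaffold of the signal recognition particle that targets secreted proteins to the endoplasmic reticulum, was higher in fixed cells. RN7SL2 (GRCh38, chr14:49862550-49862849, minus strand) ran from 0 through a median of 0 to 27.6 TPM in live cells and from 0 through 42.9 to 250 in fixed cells. It had the highest log2 ratio among genes with a mean of at least 10 TPM, 3.56 (3.73 as given). It was above 0 in 41.8% of live cells (exact 95% interval 31.5 to 52.6) and 92.4% of fixed cells (84.9 to 96.9), and in 14.3% and 82.8% at 500000 reads. RN7SL2 was also the 1 tested gene (0.00892%) whose share of cells was higher by 30 points or more. Its partner RN7SL1 (chr14:49586580-49586878, plus strand) had means of 26.1 ± 26.97 and 92.4 ± 55.3 TPM and a log2 ratio of 1.67. The transcripts match at 296 of 301 aligned positions, so reads may be split between them and the sum is safer. The sum of the pair ran from 0 through 23.4 to 155.97 TPM in live cells and from 0 through 143.01 to 369 in fixed cells, and 37 fixed cells were above the highest live cell.

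**Figure D2:**
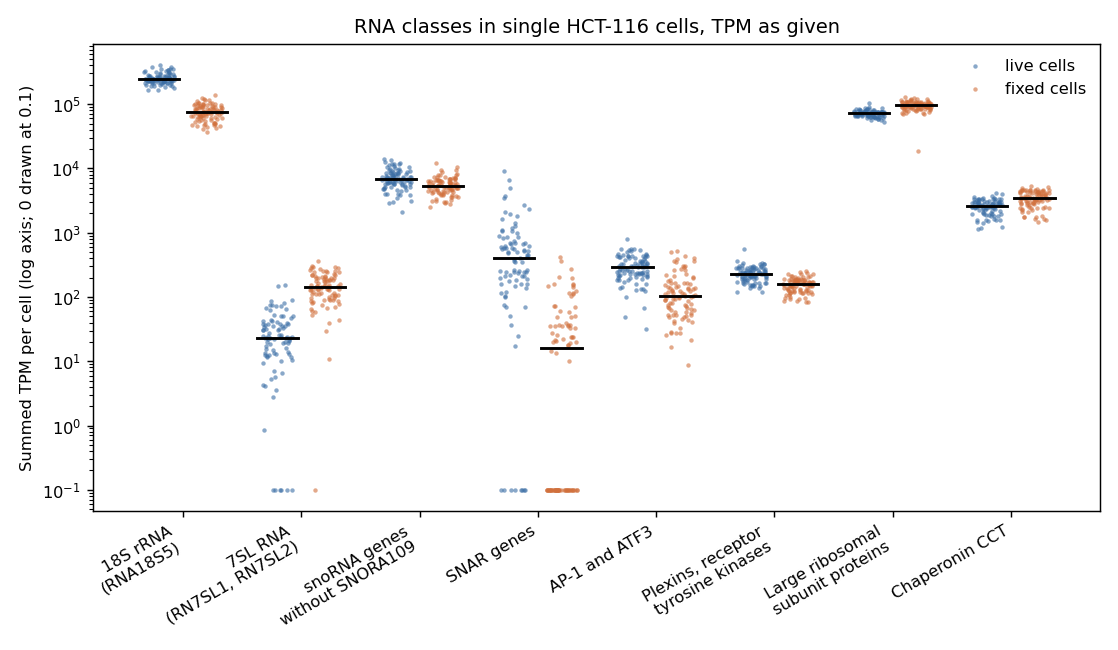
Summed TPM per cell, as given (log axis, 0 drawn at 0.1), of 8 RNA classes, 1 point per cell, with live and fixed cells side by side and a bar at each median. The 92 fixed cells lie below every live cell for 18S RNA, while the classes of 7SL RNA, ribosomal proteins and the chaperonin lie higher in fixed cells with overlapping ranges.

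Small nucleolar RNAs (snoRNAs) guide the methylation and pseudouridylation of ribosomal RNA, and most human ones are cut out of introns of other genes after splicing. They were lower in fixed cells as a class, while the median of the genes that carry them was not. Of 293 snoRNA genes in the table, only some passed the filter and were tested. Those tested had a median log2 ratio of -0.60 (-0.38 as given, -0.70 without ribosomal RNA). Of the tested genes, 41 were at least 2-fold lower (34 as given) and 2 at least 2-fold higher (4 as given). These counts are therefore not shares of the 293. Of the 72 snoRNA genes in introns of tested hosts, 30 were at least 2-fold lower, against 10.7% of all genes tested. Summed without SNORA109, the snoRNA genes in the table ran from 2075 through 6897 to 14177 TPM in live cells and from 2523 through 5382 to 12041 in fixed cells. The ranges overlapped, and 76 of the 92 fixed cells were below the live median.

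The position of these genes on GRCh38 was taken from GENCODE, and 76 short RNA genes (72 snoRNAs and 4 microRNAs, of which 2 share a host) lay in an intron of 1 of 46 tested host genes. The median log2 ratio of the 76 was -0.67 and that of their hosts 0.16 (-0.46 and 0.34 as given). At least 2-fold lower were 33 of the short RNAs and 0 of the hosts, and 61 of the 76 were lower than their own host. The short RNAs were above 0 in a median of 48.9% of live and 25.5% of fixed cells. Noncoding snoRNA hosts taken as a list of their own had a median of -0.14 (0.04 as given), with log2 ratios above 0 in 9 of 23. A read of an unspliced host transcript cannot be told apart from one of the short RNA.

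The 3 snoRNAs shown next are the C/D box type, which guides methylation; 2 are far below their hosts and SNORD5 is 1 of the 2 that were higher. Capitals mark the C box (TGATGA) and the D box (CTGA) that the class is named for, both read on the strand of the gene, and the sequences are GRCh38.
SNORD30, chr11:62853663-62853732, minus strand: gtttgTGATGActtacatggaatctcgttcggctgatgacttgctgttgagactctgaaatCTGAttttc
SNORD12C, chr20:49278940-49279028, plus strand: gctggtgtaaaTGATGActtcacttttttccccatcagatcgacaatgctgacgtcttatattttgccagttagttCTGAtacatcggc
SNORD5, chr11:93733228-93733300, minus strand: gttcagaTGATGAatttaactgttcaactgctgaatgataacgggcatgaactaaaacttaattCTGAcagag

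SNORD30, which lies in an intron of the noncoding host SNHG1, had means of 50.7 TPM in live and 5.11 in fixed cells (log2 ratio -3.56) and was above 0 in 48.4% and 5.43% of cells, while SNHG1 itself was at -0.47. SNORD12C, in the noncoding host ZFAS1, had means of 135.01 and 30.6 TPM (-2.37), and ZFAS1 was at 0.41. The same order held for SNORA3A and SNORA3B in RPL27A (-2.50 and -1.87, host 0.40), SNORA4 in the helicase gene EIF4A2 (-2.52), SNORD10 in its paralog EIF4A1 (-2.23) and SNORD16 in RPL4 (-1.82). The pair that was at least 2-fold higher had few cells behind it: SNORD5, in TAF1D, was above 0 in 23.1% of live and 27.2% of fixed cells with means of 16.96 and 44.9 TPM (1.22), and SNORA24, in SNHG8, in 34 live and 46 fixed cells with means of 16.4 and 36.1 TPM (1.01).

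The 4 intronic microRNA genes were all lower than their hosts, from a difference of -0.45 for MIR6748 (-0.31) in TMEM179B (0.14) to -4.19 for MIR616. MIR5047 lies in an intron of DDX5, an RNA helicase of splicing, and ran from 36.01 through a median of 370 to 2476 TPM in live cells and from 0 through 0 to 649 in fixed cells. It was above 0 in 100% of live and 33.7% of fixed cells, at a log2 ratio of -3.16 (-3.02 as given). DDX5 had means of 226 and 255 TPM and a log2 ratio of -0.03. MIR3064, in the same host, had means of 398 and 97.6 TPM (-2.19) and was above 0 in 98.9% and 55.4% of cells. MIR616 lies in an intron of DDIT3, which encodes the stress transcription factor CHOP, and moved against its host: MIR616 had means of 59.7 and 8.78 TPM (-2.98) and DDIT3 means of 50.2 ± 117.9 and 131.8 ± 266 (1.21).

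The libraries read the locus and not the mature microRNA, whose sequences (RefSeq, GRCh38.p14) are printed to show what each locus encodes. Capitals mark the seed, bases 2 to 8, and none of the 5 shares a seed with another.
hsa-miR-5047, chr17:64501230-64501250, minus strand: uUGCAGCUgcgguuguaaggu
hsa-miR-3064-5p, chr17:64500817-64500837, minus strand: uCUGGCUGuuguggugugcaa
hsa-miR-3064-3p, chr17:64500775-64500797, minus strand: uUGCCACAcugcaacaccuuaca
hsa-miR-616-5p, chr12:57519223-57519244, minus strand: aCUCAAAAcccuucagugacuu
hsa-miR-616-3p, chr12:57519183-57519204, minus strand: aGUCAUUGgaggguuugagcag

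RNAs of RNA polymerase III and the spliceosome were mixed. Of 20 tested entries 8 were at least 2-fold lower and 2, the 7SL genes, at least 2-fold higher, with a median of -0.51 (-0.30 as given). With copies of identical values counted once, 4 of 14 were lower and 2 higher, and the median was -0.12. RNU2-1, the U2 RNA that pairs with the branch point, had means of 122.2 and 57.1 TPM (-1.34), and the 5 entries of U1 RNA hold identical values and a log2 ratio of -1.19. RMRP, the RNA of a ribosomal RNA processing enzyme, was at -1.98 with medians of 6.91 and 0 TPM.

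Small NF90-associated RNAs (SNAR), a primate family of short noncoding RNAs transcribed by RNA polymerase III, were at the bottom of the table. SNAR-A3 ran from 0 through a median of 25.9 to 539 TPM in live cells and from 0 through 0 to 25.6 in fixed cells, at a log2 ratio of -4.81, and was above 0 in 90.1% and 45.7% of cells. Its values equal those of the 9 other entries SNAR-A4 to SNAR-A11 and SNAR-A14, so these 10 count as 1. SNAR-B1 and SNAR-B2, also identical, had means of 76.4 and 6.82 TPM (-3.70). The family sum ran from 0 through 411 to 9075 TPM in live cells and from 0 through 15.9 to 417 in fixed cells, with 8 live and 43 fixed cells at 0.

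Among nuclear long noncoding RNAs, MALAT1, a retained RNA of nuclear speckles, ran from 47.9 through a median of 335 to 1261 TPM in live cells and from 7.63 through 917 to 3102 in fixed cells, at a log2 ratio of 1.16 (1.34 as given). The ranges overlapped. It was the 1 of 10 tested members past 2-fold (2 as given), and the median of the list was 0.19 (0.38 as given, 0.07 without ribosomal RNA). NEAT1, the scaffold of paraspeckles, had means of 7.33 and 8.56 TPM (0.05). In the cells labelled HepG2 MALAT1 was at -0.13 with means of 475 and 528 TPM.

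The protein-coding genes that were lowest and highest by the rule used for naming were FOS, DOHH and PKP3, and FGFBP1, TAF15 and SPTSSA. The middle 60 coding bases of each are printed with G and C in capitals, as a sample of each message. They come from GENCODE release 44 transcripts on GRCh38.
FOS, from coding base 541: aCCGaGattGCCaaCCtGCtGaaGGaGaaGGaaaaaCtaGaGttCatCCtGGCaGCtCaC
DOHH, from coding base 424: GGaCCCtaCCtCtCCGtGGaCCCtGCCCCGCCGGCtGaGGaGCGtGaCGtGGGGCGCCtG
PKP3, from coding base 1165: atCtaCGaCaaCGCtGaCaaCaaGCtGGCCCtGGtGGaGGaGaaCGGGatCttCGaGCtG
FGFBP1, from coding base 322: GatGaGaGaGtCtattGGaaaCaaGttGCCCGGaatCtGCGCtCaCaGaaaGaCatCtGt
TAF15, from coding base 859: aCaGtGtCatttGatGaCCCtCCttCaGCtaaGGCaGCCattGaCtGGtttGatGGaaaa
SPTSSA, from coding base 76: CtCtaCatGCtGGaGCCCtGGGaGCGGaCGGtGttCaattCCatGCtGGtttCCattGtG
The whole coding sequences are 60.5% G and C in FOS, 71.5% in DOHH, 67.3% in PKP3, 50.6% in FGFBP1, 51.5% in TAF15 and 55.4% in SPTSSA. The whole transcripts are 52.8, 68.5, 66.7, 48.5, 50.7 and 36.7% in the same order, and the printed stretches are 50% in FOS and 55% in SPTSSA, so the stretches of FOS and SPTSSA do not rank as their ratios do.

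FOS, the AP-1 subunit induced within minutes of a stimulus, ran from 0 through a median of 115.97 to 391 TPM in live cells and from 0 through 1.95 to 107.7 in fixed cells, at a log2 ratio of -4.24 (-4.01 as given). DOHH, which completes the hypusine modification of the translation factor eIF5A, ran from 0 through 18.6 to 56.97 TPM in live and from 0 through 0 to 12.4 in fixed cells. Its log2 ratio was -4.03, and the ranges of both genes overlapped. PKP3, a desmosomal plakophilin, ran from 2.44 through 27.3 to 96.8 TPM in live and from 0 through 0.924 to 16.5 in fixed cells (-3.60). In the cells labelled HepG2 the log2 ratios of DOHH and PKP3 were -3.31 and -3.63.

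The coding genes that were highest in fixed cells differed by less and had low levels. TAF15, which encodes an RNA-binding protein of transcription, ran from 0 through 4.01 to 19.2 TPM in live and from 0 through 17.4 to 50.002 in fixed cells, at a log2 ratio of 1.65 (1.88 as given). SPTSSA, a small subunit of the enzyme that starts sphingolipid synthesis, had means of 8.09 ± 5.95 and 25.2 ± 14.8 TPM (1.45). FGFBP1, a carrier of fibroblast growth factors, had means of 5.84 ± 10.2 and 22.7 ± 62.4 TPM (1.79), but it was above 0 in 45.1% of live and 39.1% of fixed cells and reached 369 TPM in 1 fixed cell against a median of 0. CDV3, FAT1, an atypical cadherin, and ANKRD37 were at 1.07, 1.05 and 1.12. ANKRD37 ran from 0 to 469 TPM in live cells and from 0 to 1151 in fixed cells around medians of 4.61 and 8.61, so its mean rests on few cells, as does that of DDIT3, at 0 to 751 and 0 to 1713 TPM around medians of 16.8 and 39.6. NSFP1 (1.30) is a pseudogene that shares sequence with a protein-coding gene, and LOC100506675 (1.48, means of 14.1 and 44.96 TPM) is named only.

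AP-1 joins FOS and JUN family proteins into a transcription factor, and its genes split by member. Of the 8 tested with ATF3, 4 were at least 2-fold lower and 0 higher, with a median of -1.04 (-0.80 as given). FOS at -4.24, JUN at -4.11, FOSB at -3.02 and JUNB at -1.73 were the 4; JUNB was named after its values were seen. JUN ran from 0 through a median of 4.71 to 57.9 TPM in live and from 0 through 0 to 8.74 in fixed cells, and was above 0 in 82.4% (exact 95% interval 73.02 to 89.6) and 16.3% (9.42 to 25.5) of them. At 500000 reads these shares were 80.2% and 16.1%. FOSL1, the FOS-like subunit with the highest mean in this list, had means of 84.3 and 91.4 TPM and a log2 ratio of -0.06. The summed list ran from 31.9 through 289 to 785 TPM in live and from 8.73 through 103.2 to 516 in fixed cells, with 81 fixed cells below the live median. In the cells labelled HepG2 FOS was at -4.75 and JUN at -4.23.

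The other immediate early genes followed in part. Of 34 tested 10 were at least 2-fold lower (6 as given) and 1 higher, with a median of -0.49 (-0.29 as given, -0.59 without ribosomal RNA). CYR61, a matricellular protein gene, had means of 22.4 and 5.67 TPM (-2.26) and ID1, an inhibitor of helix-loop-helix factors, 703 and 679 (-0.23). DUSP5, a phosphatase of ERK, was the 1 gene past 2-fold upward, named after its values were seen, with means of 2.96 and 6.71 TPM (1.05). Of the heat shock genes HSPA1B, the inducible HSP70, had means of 120.6 and 32.8 TPM (-2.09), while HSPA8, the constitutive form, had means of 970 and 1192 (0.11) and HSPA9, the mitochondrial form, 180 and 264 (0.36). CDC37, which brings kinases to HSP90, was at -1.31 and HSP90AB1 at 0.39.

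**Figure D3:**
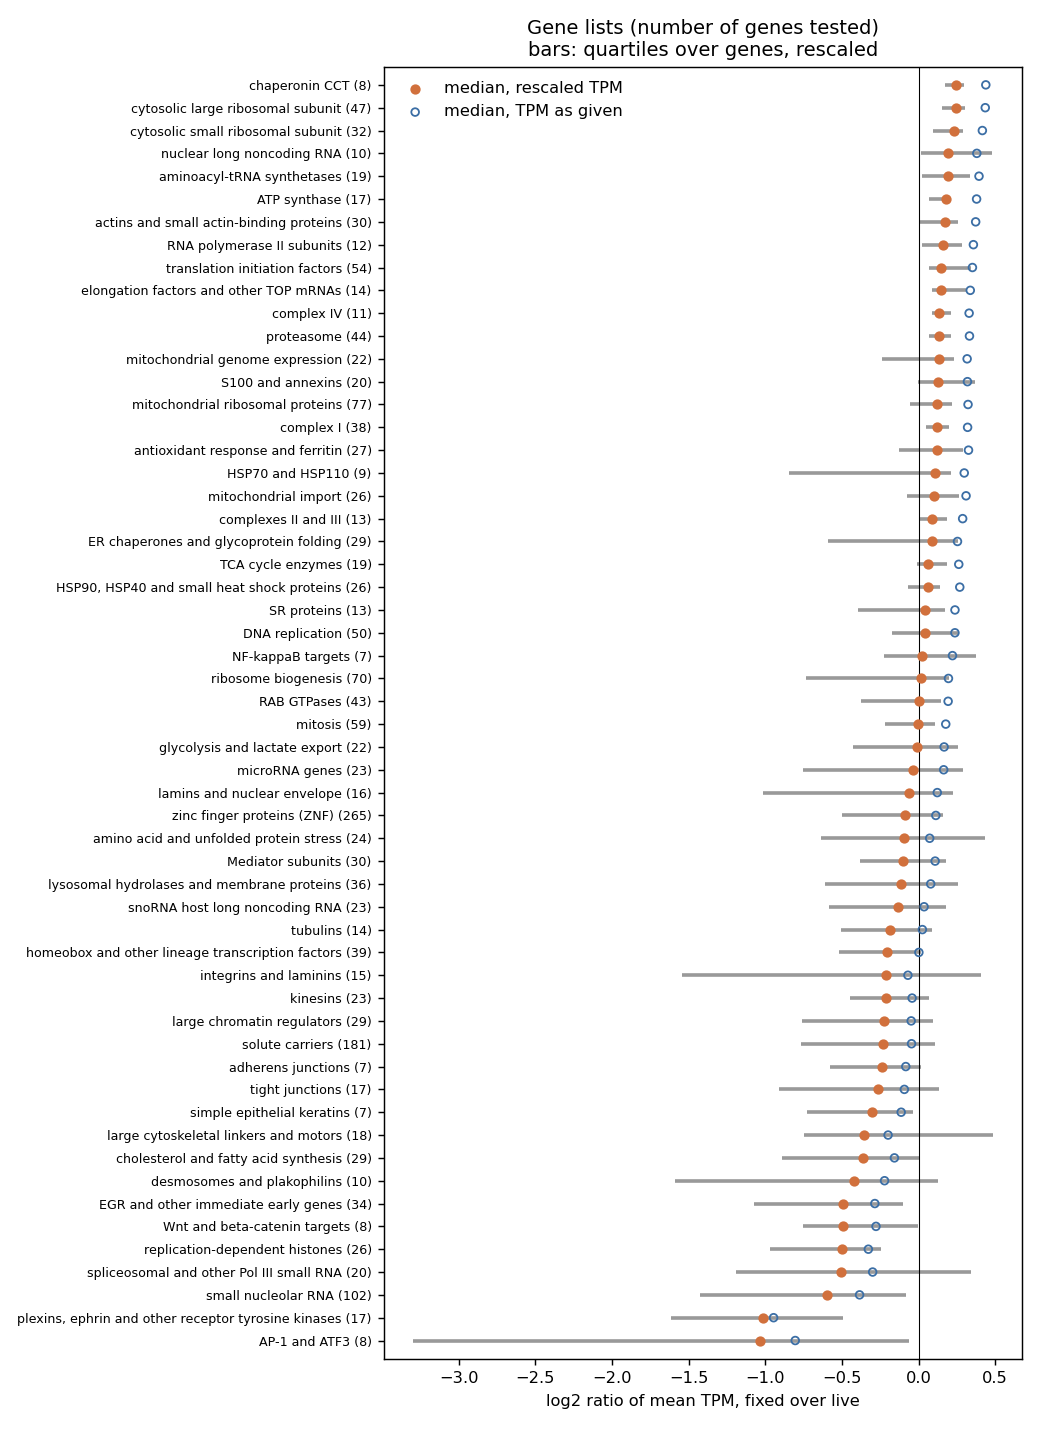
Median log2 ratio of mean TPM, fixed over live, for the gene lists reported with at least 5 tested genes (number in brackets), other than SNAR at -4.81, which holds few distinct entries: filled points after rescaling with bars over the quartiles of the genes, open points as given. The lists of AP-1 genes and of plexins and receptor tyrosine kinases lie lowest. Ribosomal proteins, the chaperonin and respiratory chain lists lie to the right of 0 on both scales.

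Genes of translation lay above the median of all genes. The large ribosomal subunit had a median of 0.24 (0.43 as given, 0.13 without ribosomal RNA), with 45 of 47 genes above 0, and the small subunit 0.23 (0.42 and 0.10), with 29 of 32 above 0; of these 79 genes 0 were past 2-fold either way. RPL41 had mean TPM of 4552 and 6103 (0.24), RPL37 262 and 425 (0.51), RPS24 1240 and 1908 (0.42) and RPS2 1575 and 1503 (-0.27). Summed, the large subunit genes ran from 53387 through 73196 to 105132 TPM in live and from 18898 through 96928 to 129577 in fixed cells, and 24 fixed cells were above the highest live cell. EEF1A1, which brings aminoacyl-tRNA to the ribosome, had means of 3280 and 5291 TPM (0.49), and EEF2, which moves the ribosome along the message, 378 and 213 (-1.02).

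Other protein machines of cytosol and mitochondria also had medians above that of all genes. All 8 genes of the chaperonin CCT, which folds actin and tubulin, were above 0, from CCT3 at 0.05 (457 and 543 TPM, and -0.06 without ribosomal RNA) to CCT8 at 0.36 (366 and 536 TPM), with a median of 0.24 (0.44 as given). The medians of aminoacyl-tRNA synthetases, ATP synthase, the proteasome and mitochondrial ribosomal proteins were 0.19, 0.18, 0.13 and 0.12. Those of respiratory complexes I and IV were 0.12 and 0.14. Complex I and the mitochondrial ribosomal proteins had 0 genes past 2-fold of 38 and 77 tested; the proteasome had 1 of 44, PSMD3 at -1.21. In each of these lists the median stayed above 0 as given and without ribosomal RNA.

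Receptors and junction genes of the cell surface lay on the other side. Of 17 plexins and receptor tyrosine kinases 10 were at least 2-fold lower and 0 higher, with a median of -1.01 (-0.95 as given). PTK7, a pseudokinase receptor of Wnt signaling, had means of 20.8 and 4.48 TPM (-2.40), and MET, the receptor of hepatocyte growth factor, 16.96 and 27.1 (0.49). AXL was at -0.01. The summed list ran from 117.6 through 231 to 561 TPM in live and from 82.1 through 158.8 to 250 in fixed cells, with 89 fixed cells below the live median. ITGB4, the integrin of hemidesmosomes, had means of 96.4 and 27.5 TPM (-1.99) and its partner ITGA6 was at 0.55. Desmosomes had a median of -0.42, with PKP3 lowest and DSG2, a desmosomal cadherin, at 0.26. Tight junctions had a median of -0.26, with CLDN7 at means of 157.3 and 94.3 TPM (-0.91) and TJP1, which anchors claudins, at 0.28. At least 2-fold lower were 3 of 10 desmosomal and 4 of 17 tight junction genes, against 10.7% of all genes tested. KRT8, an epithelial keratin, had means of 1902 and 1138 TPM (-0.94).

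Genes of 1 complex or family were often split. POLR2A, the catalytic subunit of RNA polymerase II, had means of 33.8 and 13.01 TPM (-1.54), whereas the list of 12 subunits had a median of 0.16. POLRMT, the mitochondrial RNA polymerase, was at -2.73 (24.6 and 4.08 TPM) in a list of 22 with a median of 0.13. In ribosome biogenesis DDX54 was at -2.52 (26.3 and 5.18 TPM) and DDX18, also a helicase, at 0.58 (29.6 and 50.1 TPM). Among glycolysis genes SLC16A3, which exports lactate, was at -2.95 and GAPDH at 0.20. Of 181 solute carriers 34 were at least 2-fold lower (23 as given) and 4 higher, against 10.7% and 1.02% of all genes tested. SLC7A11, the cystine importer, was at 1.08 with means of 3.88 and 9.69 TPM. Further lows were LMNB2, a lamin (-2.32), POLD1, the catalytic subunit of DNA polymerase delta (-2.02), ARHGAP4, a GTPase-activating protein gene (-3.08), and SRCAP, a chromatin remodeler (-2.12), while DNA replication and mitosis as lists had medians of 0.04 and -0.00.

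The highest and lowest member of a list differed in base content in most cases. In 52 lists both were protein-coding with a reference transcript. In 48 of them the lowest member had the higher GC content, with medians of 59.9% for the lowest and 43.6% for the highest members. Members were picked by a ratio that was itself lower at higher GC content across all genes. Extremes of other gene sets may therefore show the same order, and no such sets were compared. SLC16A3, SLC7A11 and PSMB9 recur between lists, so the lists are not separate cases. EEF2 and EEF1A1 have 59.9% and 42.5%, DDX54 and DDX18 60.6% and 39.5%, and PTK7 and MET 59.97% and 43.5%. The 4 exceptions were AP-1, in which FOS has 52.8% and FOSL1 58.7%, NF-kappaB targets, complex IV and amino acid stress genes.

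Across all genes the ratio was lower at higher GC content. In 5 bins of 2009 or 2010 genes by the GC content of the transcript, from 30.7 to 74.8%, the median log2 ratios were 0.16, 0.12, 0.04, -0.21 and -0.67 (0.35, 0.31, 0.23, -0.02 and -0.47 as given). At least 2-fold lower were 0.597, 1.84, 3.19, 13.04 and 34.2% of them. The 1063 genes called lower with a transcript had a median GC content of 59.9%, the 95 called higher 46.9% and all 10046 genes 47.6%. Length alone gave no such order: medians in 5 bins of length, from short to long, were 0.05, -0.03, -0.07, -0.09 and 0.01. In the highest GC bin, the median went from -0.25 for the 594 shortest transcripts to -1.08 for the 290 in length bin 4. Spearman's rank correlation over the 10046 genes, which share their cells and are not independent, was -0.51 for GC content and -0.02 for length.

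**Figure D4:**
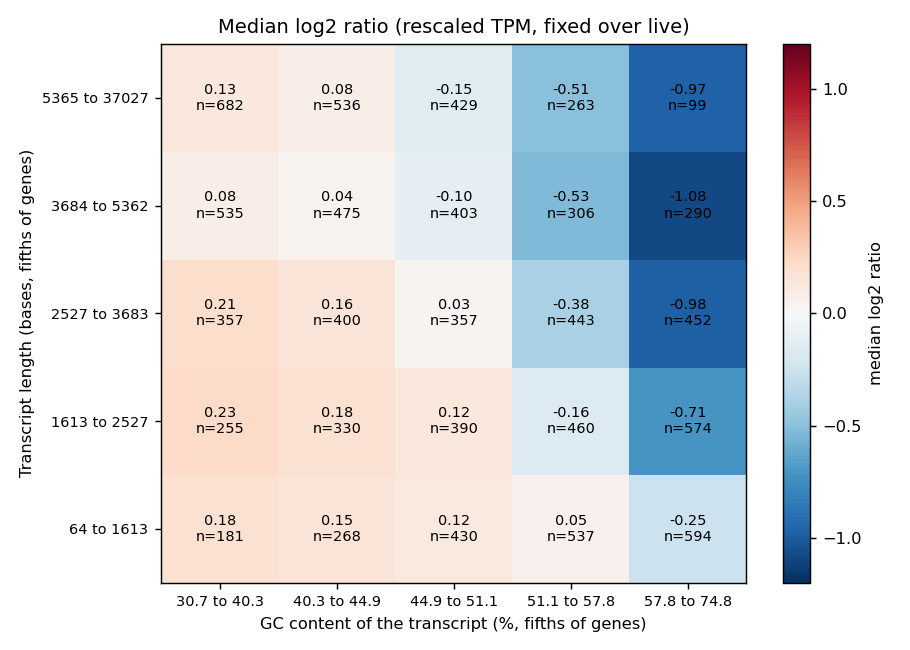
Median log2 ratio of rescaled TPM, fixed over live, in a grid of 5 by 5 bins of genes by GC content (horizontal, %) and by transcript length (vertical, bases), with the value and the number of genes in each cell. The highest GC bin is negative at every length, from -0.25 in the shortest bin to -1.08 in length bin 4, and the lowest GC bin is above 0 at every length.

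Set against genes of the same length and GC bin, lists differed in what was left. The median difference was -0.74 for AP-1 genes and -0.73 for snoRNA genes. It was -0.38 for the list of plexins and receptor tyrosine kinases, which has a median GC content of 59.3%, and -0.23 for the other immediate early genes. The shortest bin runs from 64 to 1613 bases, and the 84 snoRNA genes with a length have a median of 121.5. Most snoRNA genes are therefore not set against genes of like length. For the large ribosomal subunit the median difference was 0.15. It was 0.10 for the chaperonin CCT, 0.08 for complex IV, 0.07 for the proteasome, 0.06 for complex I and 0.01 for mitochondrial ribosomal proteins. These lists therefore lay closer to genes of their own bin than to the median of all genes. How far base content accounts for any of these values was not tested.

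Fewer genes were seen per fixed cell, and for most genes the share of cells above 0 was lower (8591 of 11205 genes, 76.7%). The share was lower by at least 50 points for 28 genes (0.25%). The largest drops were in ARMC5, from 90.1 to 22.8% of cells (84.6 to 17.2% at 500000 reads), MIR5047, from 100 to 33.7%, and JUN. ERF, a repressor of the ETS family, went from 91.2 to 29.3%, FOSB from 87.9 to 26.1%, TRIM72, a membrane repair protein gene, from 93.4 to 33.7%, and DAPK3, a kinase of cell death and contraction, from 97.8 to 39.1%. DOHH went from 97.8 to 39.1% (97.8 to 27.6% thinned) and TSPYL2 from 84.6 to 26.1% (81.3 to 24.1% thinned). LOC102724438 went from 82.4 to 22.8%. For ARMC5, JUN, DOHH and TSPYL2 the drops at 500000 reads were as large or nearly so; for FOSB the shares were 35.2 and 0%, a smaller drop. No gene tested was at 0 in all cells of either treatment. Over all genes listed, 2125 were above 0 in live cells only and 1372 in fixed cells only; these have low values and did not pass the filter.

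The spread between cells was larger in fixed cells. Of 2634 genes with a mean of at least 30 TPM, 2117 (80.4%) had a higher coefficient of variation (CV, SD over mean of rescaled TPM) in fixed cells, with medians of 0.428 in live and 0.493 in fixed cells. Counting error is larger in the shallower fixed cells; with cells paired on total reads, 70 per treatment, 1843 genes (69.97%) were higher. Relative to genes of like mean, the largest rises were in SLC25A5, UBE2A, LAGE3, COX7B, PRPS1, HPRT1, GLA, FAM127A, NONO and SERPINE2, of which 8 lie on the X chromosome beyond 70 Mb. A single fixed cell stood behind these 8 and FAM127A, for which no position was used: without it 9 of the 10 genes lost over 50% of their rise. SLC25A5, an ADP/ATP carrier of mitochondria, had CVs of 0.254 (live) and 1.08 (fixed), and of 0.232 in fixed cells once it was left out; HPRT1, a purine salvage enzyme, had 0.401, 1.31 and 0.527. Without it 2111 genes (80.1%) still had the higher CV, and SERPINE2, a secreted protease inhibitor with medians of 72.5 and 106.2 TPM, led with 0.789 in live and 1.80 in fixed cells.

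**Figure D5:**
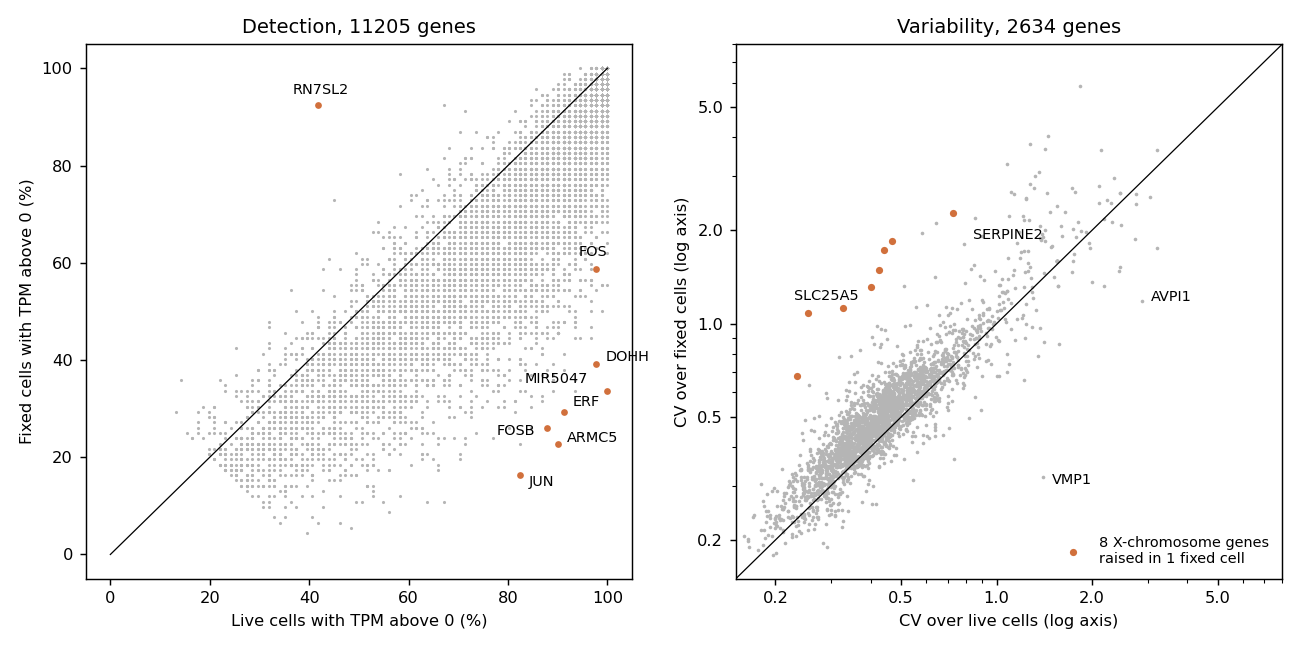
Left, percent of fixed cells against percent of live cells with TPM above 0, 1 point per gene tested; right, CV over fixed cells against CV over live cells (log axes), 1 point per gene with a mean of at least 30 TPM. Most points lie below the diagonal on the left and above it on the right, and the 8 X-chromosome genes raised in 1 fixed cell are marked.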

How the data were processed

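Single-cell Smart-seq2 libraries of HCT-116 cells were analysed from deposited tables. The authors quantified reads with kallisto 0.46.0 on GRCh38 (submitters' processing notes, which also list FastQC), summed transcripts to genes with tximport, kept cells with over 4000 genes and deposited TPM per gene. The transcript table holds CPM as deposited; it gave total reads, to the nearest 0.1 M (units of 1000000), and the thinning to 500000 reads. Singlets were gated by scatter and no doublet caller was run. Columns give the treatment but not the labelled cell, and 4 labelled fixed cells were not analysed here.

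Each cell was divided by the median ratio to the geometric mean of genes above 0 in at least 90% of cells. Genes with a mean of at least 1 TPM and above 0 in at least 20% of cells were compared by the log2 ratio of mean rescaled TPM, called at 2-fold, on transcripts of GENCODE release 44 (89.7% of genes had one, 70.9% had reads for thinning). Shares carry exact 95% Clopper-Pearson intervals, for counting error alone.

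Genes named are the 15 highest and 15 lowest ratios with a mean of at least 10 TPM, the 10 largest drops and any gain of at least 30 points in the share of cells, the 10 largest rises of CV above a running median of 100 genes, ribosomal RNA and, in each list, the highest mean and the highest and lowest ratio with a mean of at least 5 TPM. Intronic short RNAs, their hosts, markers, NEAT1 and the genes said to be named after their values were seen stand outside it. Members and lists were chosen with earlier results of these data known. Some items are not reported here. The 24 symbols turned into dates were not named. Python 3.11.15, numpy 2.4.6, pandas 2.3.3, scipy 1.17.1 and matplotlib 3.10.9 were used, and the scripts were tested on simulated data. Alternatives are the scaling, filters, pseudocounts on a log2 scale, thinning and pairing on reads; CPM summed per gene, cells under 1 M reads left out and 1 cell left out for CV were added after seeing the data.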

Additional observations from a re-analysis of the deposited data

Results flagged for a closer look

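Of 44 named genes with a value in the cells labelled HepG2, 8 had log2 ratios of opposite sign there, and 2 of the genes named were past 2-fold in opposite directions. The difference was not tested. RNA5-8S5 had a log2 ratio of -3.34 in HCT-116 (means of 49.1 and 5.85 TPM in live and fixed cells) and 1.12 in the cells labelled HepG2 (9.87 and 26.5 TPM). SNORA24 had log2 ratios of 1.01 (16.4 and 36.1 TPM) and -1.35 (16.5 and 7.30 TPM).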

How the results depend on the processing

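No result changed sign against its call under any alternative run, and leaving out a replicate was not possible with 1 sample per treatment. No paired analysis was possible because the columns carry no replicate number that matches the labels. Genes at least 2-fold higher (1.02% of the 11205 tested) numbered 213 as given, and 12 and 54 as differences of mean log2(TPM + 1) and log2(TPM + 0.1). They numbered 15 of 5306 (0.283%) with a mean of at least 10 TPM and 2047 of 25309 (8.09%) without a filter. Genes at least 2-fold lower numbered 1199 (10.7%), and 2548 (22.7%) on log2(TPM + 0.1). They numbered 302 of 5306 (5.69%) with a mean of at least 10 TPM and 4779 of 25309 (18.9%) without a filter. Genes lower by 50 points in share of cells numbered 28, and 48 counting TPM above 1 and 33 with paired cells. After thinning they numbered 35, among the 70.9% of genes that had reads for it. Genes with the higher CV numbered 2117 of 2634 (80.4%), and 4436 of 5298 (83.7%) from a mean of 10 TPM. List medians moved past the spread between cells as given for translation initiation (0.35), mitochondrial ribosomal proteins (0.32), complex I (0.32), TCA cycle enzymes (0.26) and ZNF genes (0.11). On log2(TPM + 0.1) they moved for snoRNA (-1.84), immediate early (-1.17), mitochondrial genome expression (-0.19), lysosomal (-0.43) and adherens junction genes (-0.71). On that scale they also moved for plexin and receptor tyrosine kinase (-1.75), Mediator (-0.54), ZNF (-0.46), homeobox (-0.54) and solute carrier genes (-0.76). They moved there too for RAB (-0.38) and ARF regulator and exchange factor genes (-0.59). With a mean of at least 10 TPM they moved for integrins and laminins (-0.98) and large cytoskeletal genes (-0.82). Of 63 list medians 12 had the other sign as given, 10 (of 62) with ribosomal RNA left out, 9 with a mean of at least 10 TPM, 10 on log2(TPM + 0.1), 8 on log2(TPM + 1), 3 with paired cells and 2 with reference genes at 50% of cells. By CPM summed per gene, chosen after seeing the data, 98 of 7941 genes were higher and 916 lower. Depth limits shares of cells for genes of few reads.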

Other observations

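The fixed cell behind 9 of the 10 largest rises of CV had 1.0 M reads and 11028 genes. In it the X-linked genes from 70 Mb on had a median log2 ratio of 2.86 to the median of each gene over live and fixed cells together. The 83 X-linked genes before 70 Mb had a median of -0.09. Over all other cells the median of X-linked genes ran from -0.70 to 0.25.

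Medians of a whole chromosome past 0.8 on the log2 scale were seen in other cells too. In live cells 3 cells had 1 chromosome higher (13, 14 or 16) and 4 cells had 1 or more of 5 chromosomes lower. In fixed cells 1 had the X chromosome higher and 6 cells had 1 or more of 7 chromosomes lower.

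Some genes varied less between fixed than between live cells. VMP1, a membrane protein of autophagy, had CVs of 1.40 (live) and 0.320 (fixed). BHLHE40, a transcription factor of the clock and of hypoxia, had 3.20 and 1.75, DDIT4, an inhibitor of mTORC1 induced by stress, 2.45 and 1.53, AVPI1 2.87 and 1.19, and DNAJB1, an HSP40 chaperone, 1.22 and 0.656. These genes were picked after their values were seen.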
